A study of Mus musculus with 9 samples.

Results

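The genes described are those of the constitutive proteasome, the protease complex that every nucleated cell carries, in mouse blood. They were chosen by name alone, as each gene whose symbol opens with Psma, Psmb, Psmc, Psmd or Psme followed by a digit. The inducible subunits Psmb8, Psmb9 and Psmb10 and the thymic subunit Psmb11 were left out. This gave 41 of the 20926 genes measured. Of these, 40 passed a filter on low values and were tested. One of the tested genes, Psmc3ip, is a cofactor of meiotic recombination that shares only the symbol's opening letters, so 39 tested genes belong to the proteasome, its chaperones or its activators.

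RNA sequencing was done on blood from 9 male DBA/1 mice, labelled 7 weeks of age, with 3 libraries in each of 3 groups. In the paper 7 weeks is the age when the groups were formed, before immunization, and the age at blood sampling is not stated. Ctrl mice were labelled as not irradiated, and the paper names them as controls without saying whether they received any injection. CIA mice had collagen-induced arthritis, raised by chick type II collagen in complete Freund's adjuvant followed by a booster in incomplete adjuvant, and were not irradiated. The CIA+THz group was immunized likewise and received 0.1 THz irradiation on the swollen ankle for 30 min per day over 14 days, under isoflurane anaesthesia. No irradiated group without arthritis was among the samples, so irradiation was measured only on top of arthritis. The paper describes anaesthesia only during irradiation, so the effects of anaesthesia and irradiation cannot be told apart. Levels are given as rescaled FPKM, the deposited values (fragments per kilobase, scaled to library size) divided by 1 factor per library. These values are per length, so levels may be set beside each other between genes. The deepest library was CIA+THz replicate 1. Read against it, relative depth was 0.534 to 0.588 in Ctrl, 0.541 to 0.683 in CIA and 0.724 to 1 in CIA+THz. The total number of fragments is unknown.

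As background, the 20S core is a barrel in which outer rings of alpha subunits (Psma genes) gate the entry and inner rings of beta subunits (Psmb genes) hold the protease sites. The 19S cap has a base with 6 ATPases (Psmc genes), which unfold the substrate, and a lid of Psmd subunits, which includes the enzyme that removes ubiquitin. Other proteins with Psmd names, Psmd5, Psmd9 and Psmd10, are chaperones that help to build the base and leave the finished complex. The activators (Psme genes) can take the place of the 19S cap on the barrel: Psme1 and Psme2 form the PA28 ring that interferon induces, Psme3 forms a nuclear ring, and Psme4 encodes PA200. In cells that meet interferon, Psmb8, Psmb9 and Psmb10 replace the catalytic subunits Psmb5, Psmb6 and Psmb7, which gives the immunoproteasome. Nfe2l1 (NRF1) is the transcription factor known to raise proteasome genes when proteolysis falls short, and it binds the antioxidant response element.

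The stretches before the start of Psmd9, Psmd8 and Psme3 are shown because these genes had, in that order, the largest rise in arthritis among proteasome genes, the smallest p in CIA+THz against CIA, and the highest level. They are RefSeq sequences on GRCm38.p6, read 5′ to 3′ on the gene's strand and ending just before the start. Capitals mark the core of the antioxidant response element, TGACNNNGC, or the CCAAT box, ATTGG on the other strand. The windows are chr5:123227940-123228189 (plus strand) for Psmd9, chr7:29180702-29180923 (minus strand) for Psmd8 and chr11:101315963-101316212 (plus strand) for Psme3. The Psmd8 window was shortened to the bases outside the gene as GENCODE gives it, and the Psmd9 window lies in an intron of the longest gene span in GENCODE.
Psmd9: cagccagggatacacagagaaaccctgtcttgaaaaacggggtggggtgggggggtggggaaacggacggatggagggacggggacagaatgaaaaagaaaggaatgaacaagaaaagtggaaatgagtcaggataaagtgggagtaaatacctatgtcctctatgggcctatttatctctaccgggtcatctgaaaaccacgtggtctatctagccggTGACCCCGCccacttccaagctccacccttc
Psmd8: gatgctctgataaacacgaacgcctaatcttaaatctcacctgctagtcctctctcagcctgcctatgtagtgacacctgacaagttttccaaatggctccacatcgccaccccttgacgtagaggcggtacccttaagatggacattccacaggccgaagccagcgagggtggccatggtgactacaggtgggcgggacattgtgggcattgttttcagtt
Psme3: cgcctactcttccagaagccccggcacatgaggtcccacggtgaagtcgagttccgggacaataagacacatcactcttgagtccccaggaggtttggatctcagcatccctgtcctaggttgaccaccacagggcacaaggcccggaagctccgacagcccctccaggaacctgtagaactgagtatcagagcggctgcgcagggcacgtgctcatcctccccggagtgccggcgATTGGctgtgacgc

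Both motifs were searched on both strands in the 250 bases before the start. Of the 41 genes, 34 had an entry. TGACNNNGC stood in 5 of them (14.7%), Psmb5, Psmb6, Psmc6, Psmd12 and Psmd9, beside 10.2% of 32851 promoters in the same table. CCAAT stood in 13 of the 34 (38.2%), beside 33.8% of all promoters. No match of one motif overlapped a match of the other in these windows. A match is a stretch of letters and not a measured binding site.

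The proteasome genes were well expressed and differed widely in level. The median over the 40 tested genes was 19.02 rescaled FPKM, against 4.96 over all 12366 genes tested, and the median coefficient of variation among libraries of a group was 13.6%. Subunits that stand in equal number in the assembled complex had unequal RNA levels. In the alpha ring the mean over 9 libraries ran from 16.2 for Psma5 to 50.9 for Psma7, a 3.14-fold range. In the beta ring it ran from 14.7 for Psmb1 to 59.3 for Psmb3, a 4.02-fold range. The ATPases spanned 4.35-fold, from 6.77 for Psmc5 to 29.4 for Psmc2. The lid was the least even part, with Psmd7 at 6.37 and Psmd8 at 102.

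**Figure D1:**
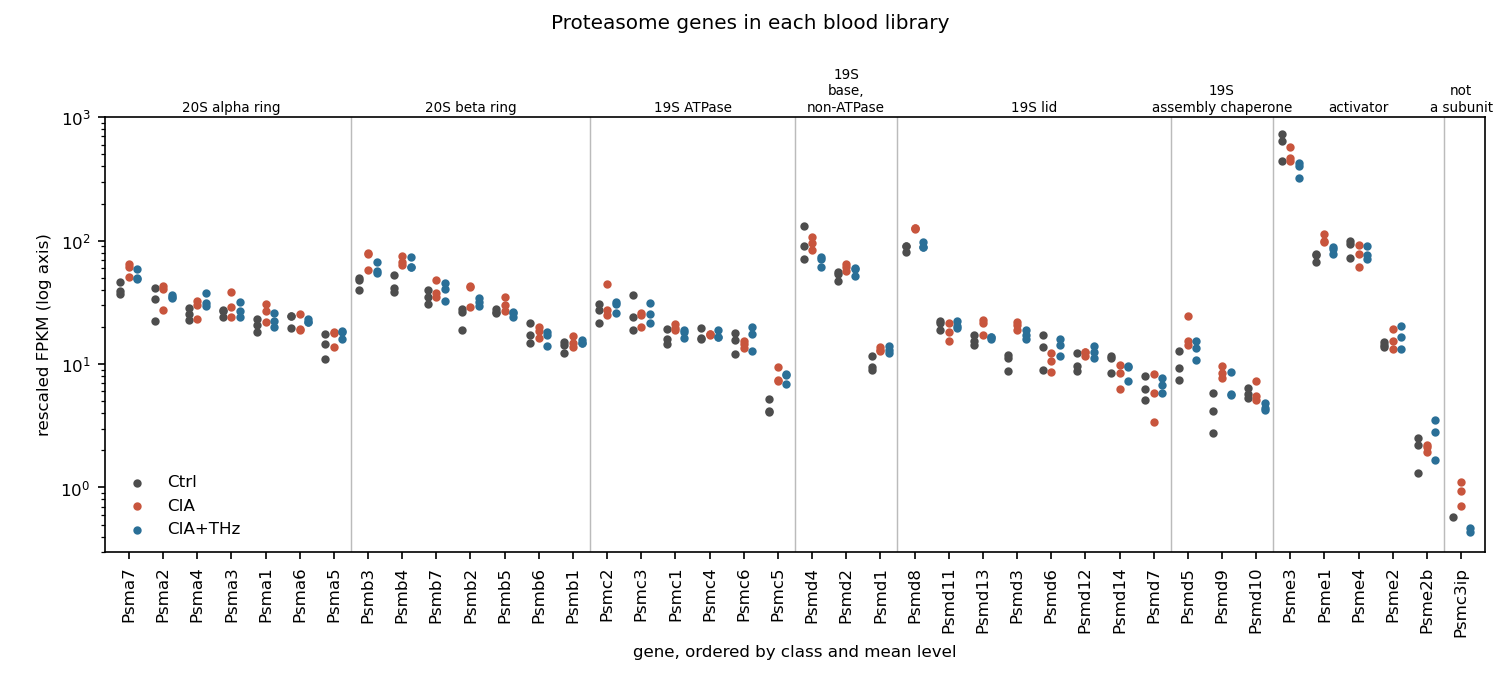
Rescaled FPKM (log axis) of 40 genes in each of 9 libraries, ordered by class and mean level, with 1 point per library and colours for Ctrl, CIA and CIA+THz. Psme3 stands above all others at 319 to 727, while most ring and cap subunits lie between 5 and 100; libraries at 0 (Psmc3ip only) cannot be drawn on a log axis, and Psma8 was left out.

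Psme3, the nuclear activator, stood apart with a mean of 495 and ranked 129 of 20926 genes by level. It made up 31.4 to 39.7% of the summed level of the 41 genes in Ctrl, 27.0 to 30.1% in CIA and 22.7 to 27.1% in CIA+THz. The next highest proteasome gene, the lid subunit Psmd8, ranked 619. The lowest tested activator was Psme2b, at 2.26, a gene nearly identical in sequence to Psme2, so that the split of fragments between these genes is uncertain. Psma8, the testis form of an alpha subunit, did not pass the filter. Every library of Ctrl and CIA listed it at 0, as did CIA+THz replicate 1, and it stood at 0.603 in CIA+THz replicate 2 and at 0.238 in replicate 3.

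The labelled tissue, blood leukocyte, was checked against marker genes. Ptprc (CD45), found on all leukocytes, was present in every library and ranked 528, while Alas2, the haem synthesis enzyme of red cell precursors, ranked 1. The libraries therefore held erythroid RNA beside that of leukocytes. The summed level of 13 erythroid markers, mostly Alas2, was 86025 to 133776 in Ctrl, 103872 to 116903 in CIA and 58446 to 81749 in CIA+THz. Taken singly, 12 of the 13 were lower in CIA than Ctrl (median log2 fold change -0.45), and 1, Alas2, was higher. All 13 were lower in CIA+THz than Ctrl (median -0.69). Against CIA, 9 were lower in CIA+THz and 4 higher (median -0.15). Of 12 monocyte markers, summed at 694 to 751, 1134 to 1274 and 899 to 961, all 12 had more RNA in CIA than Ctrl. Of 12 neutrophil markers, summed at 12688 to 21425, 14765 to 19452 and 10849 to 12327, 5 exceeded Ctrl in CIA, and 0 exceeded CIA in CIA+THz. The sums of 13 T cell markers were 524 to 590, 470 to 488 and 574 to 741, and those of 7 NK cell markers were 152 to 194, 56.5 to 120 and 101 to 153. The 10 B cell markers summed to 461 to 577, 524 to 680 and 623 to 803, and the 9 platelet markers to 4503 to 5514, 4228 to 5417 and 3587 to 4318. Sums of the 8 plasma cell markers were 116 to 140 for Ctrl, 57.3 to 64.3 for CIA and 52.2 to 58.2 for CIA+THz, with Sdc1 and Tnfrsf17 at 0 in some library. These sums moved with the groups, and their part in the results on proteasome genes was not tested.

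Across the 3 groups, 12 of the 40 tested genes had an unadjusted p under 0.05 by limma's moderated F-test, where 21.3% of all genes did. They were Psma7, Psmb2, Psmb3, Psmb4, Psmc5, Psmd1, Psmd3, Psmd5, Psmd8, Psmd9, Psme1 and Psme3. With Benjamini-Hochberg adjustment over all genes, 2 remained, both of the lid: Psmd3 (adjusted p = 0.0234) and Psmd8 (adjusted p = 0.0325). Of all genes, 2.53% passed at that level.

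CIA against Ctrl sets arthritis, raised by collagen in adjuvant, beside health. No sample was labelled as adjuvant alone, so the effects of adjuvant, immunization and arthritis cannot be told apart. Proteasome genes leaned upward: 31 of 40 were higher in CIA and 9 lower, with a median log2 fold change of 0.21, where 6099 of 12366 genes were higher and the median was -0.01. The study's criterion (unadjusted p under 0.05 with a log2 fold change beyond 0.67 in either direction) held as a rise for 5 genes, Psmc5, Psmd3, Psmd5, Psmd9 and Psmc3ip, and no gene was lower by that criterion. The share of all genes past the criterion was 9.04%, with 4.79% higher and 4.25% lower. With the p alone, 13 proteasome genes were higher and 0 lower, where 17.3% of all genes passed, 8.85% higher and 8.45% lower. The 12 without Psmc3ip had log2 fold changes of 0.37 to 1.05, and the 27 genes that did not pass lay between -0.35 and 0.34. By adjusted p, 0 of the 40 passed and 0.154% of all genes did; the smallest value was 0.0669, for Psmd3. Without CIA replicate 1 the number past the criterion was 3 and the median 0.11. In bulk blood, a change in the share of a cell type and a change of RNA per cell cannot be told apart.

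**Figure D2:**
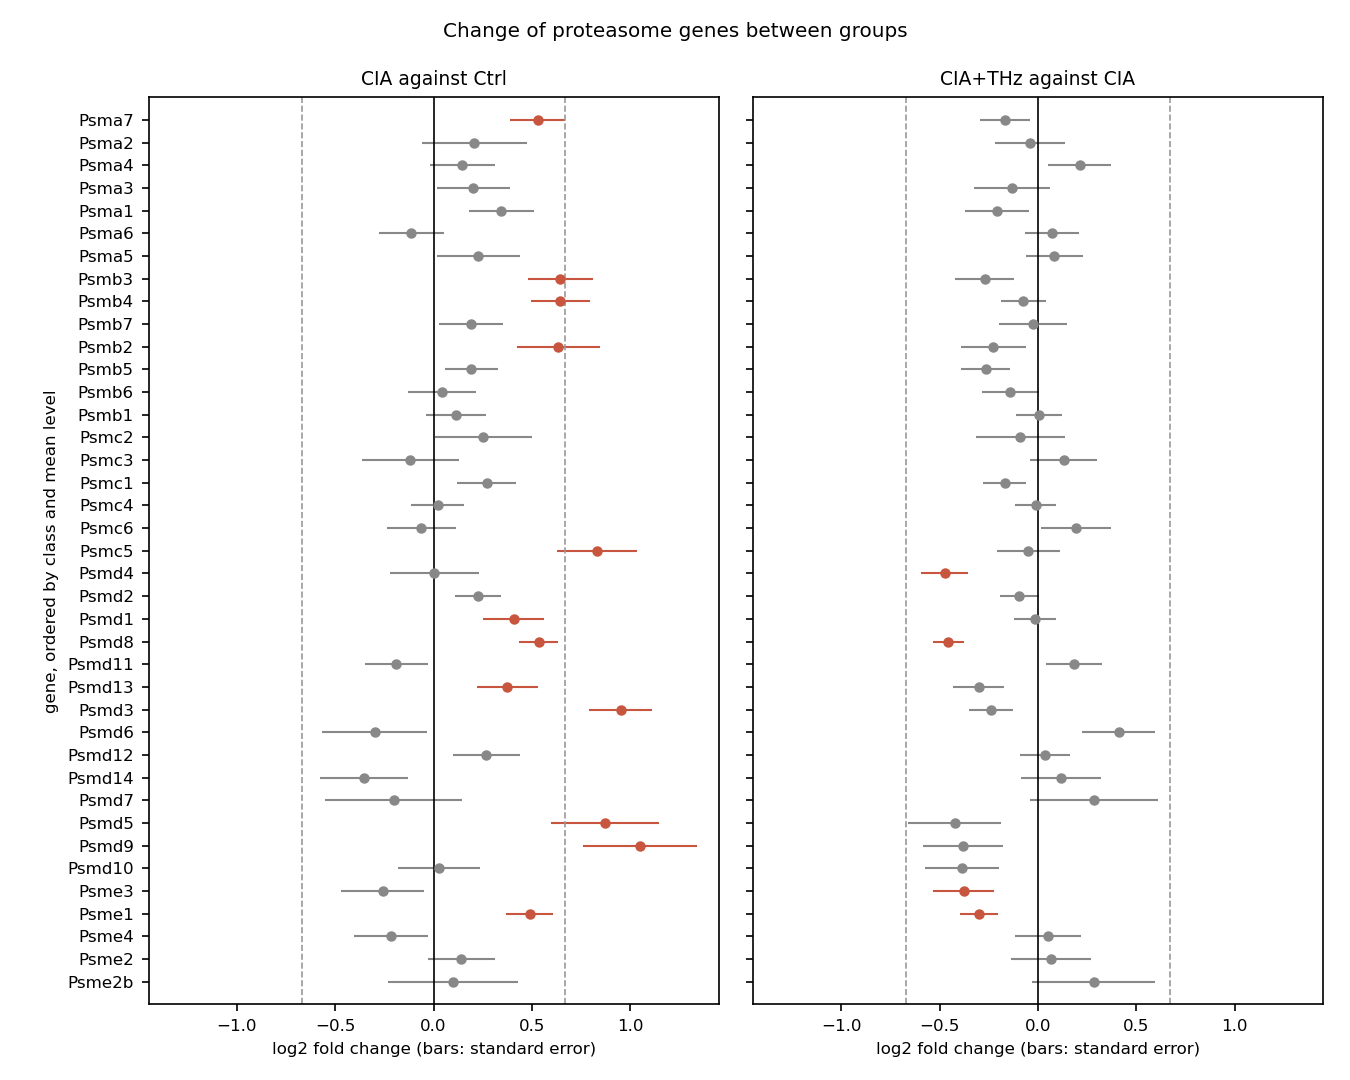
Log2 fold change of 39 proteasome genes in CIA against Ctrl (left) and CIA+THz against CIA (right), with bars for the standard error and dashed lines at the fold limit of 0.67; coloured points have an unadjusted p under 0.05. On the left all 12 coloured points lie to the right of 0, and on the right all 4 lie to the left of 0 and inside the limit.

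In the 19S base 1 of 6 ATPases and 0 of 3 other subunits passed the criterion in CIA against Ctrl, and 2 of the 3 chaperones did. Of all genes, 9.04% passed it. Psmc5 (Rpt6, chr11:106256154-106263120), an ATPase of the base, was at 4.16, 5.18 and 4.11 in Ctrl, at 9.42, 7.36 and 7.41 in CIA, and at 8.25, 8.21 and 6.85 in CIA+THz. Every arthritic library, irradiated or not, lay above every Ctrl library. Psmc5 changed by 0.83 on the log2 scale (SE 0.20, adjusted p = 0.121 by limma) in CIA against Ctrl and by 0.78 (SE 0.18, adjusted p = 0.121) in the irradiated group against Ctrl. The other 5 ATPases did not pass in either comparison, so the rise was measured for 1 of 6 genes whose products share a ring.

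Psmd5 (chr2:34849734-34874968), a chaperone of the base, was at 9.25, 7.39 and 12.8 in Ctrl, at 24.6, 15.5 and 14.3 in CIA, and at 15.3, 13.5 and 10.8 in CIA+THz. CIA replicate 1 stood highest, and the CIA libraries did not overlap those of Ctrl. For CIA against Ctrl its log2 fold change was 0.87 (SE 0.28, adjusted p = 0.193 by limma). It no longer passed the criterion without Ctrl replicate 1 (0.85), Ctrl replicate 2 (0.69) or CIA replicate 1 (0.63). Psmd9 (chr5:123169413-123250131), a chaperone with a PDZ domain, was at 5.87, 4.14 and 2.76 in Ctrl, at 8.43, 9.60 and 7.70 in CIA, and at 5.76, 5.65 and 8.59 in CIA+THz. Its log2 fold change of 1.05 (SE 0.29, adjusted p = 0.153 by limma) was the largest of the 39 proteasome genes. Exons of Psmd9 share 1849 bases with the noncoding gene Gm26745 on the opposite strand, and the kit does not mark strand, so the reads of these genes cannot be told apart. The chaperone Psmd10 (gankyrin) had a log2 fold change of 0.03 (SE 0.21).

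In the lid, Psmd3 (Rpn3, chr11:98682554-98695979) gave the smallest p of all 40 genes across the groups. Its level was 8.75, 11.95 and 11.2 in Ctrl, 20.8, 18.9 and 21.8 in CIA, and 17.3, 15.9 and 18.9 in CIA+THz. The means were 10.6 ± 1.67 (SD, n = 3), 20.5 ± 1.44 and 17.4 ± 1.53, with no overlap between Ctrl and either arthritic group. The log2 fold change was 0.95 (SE 0.16, adjusted p = 0.0669 by limma) in CIA against Ctrl, and it kept its call whichever library was left out.

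Psmd8 (Rpn12, chr7:29174188-29180701) was at 89.9, 91.2 and 80.5 in Ctrl, at 127, 124 and 128 in CIA, and at 97.5, 89.6 and 88.9 in CIA+THz. The CIA libraries were the highest and nearly equal, and the other groups overlapped each other. With limma, CIA differed from Ctrl by 0.53 on the log2 scale (SE 0.10, adjusted p = 0.0731). Irradiated mice differed from CIA by -0.46 (SE 0.079, adjusted p = 0.189). These comparisons share the CIA libraries. Both lie under the fold limit. The lid as a class had no common direction in CIA, with 4 of 8 genes higher, 4 lower and a median log2 fold change of 0.04.

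**Figure D3:**
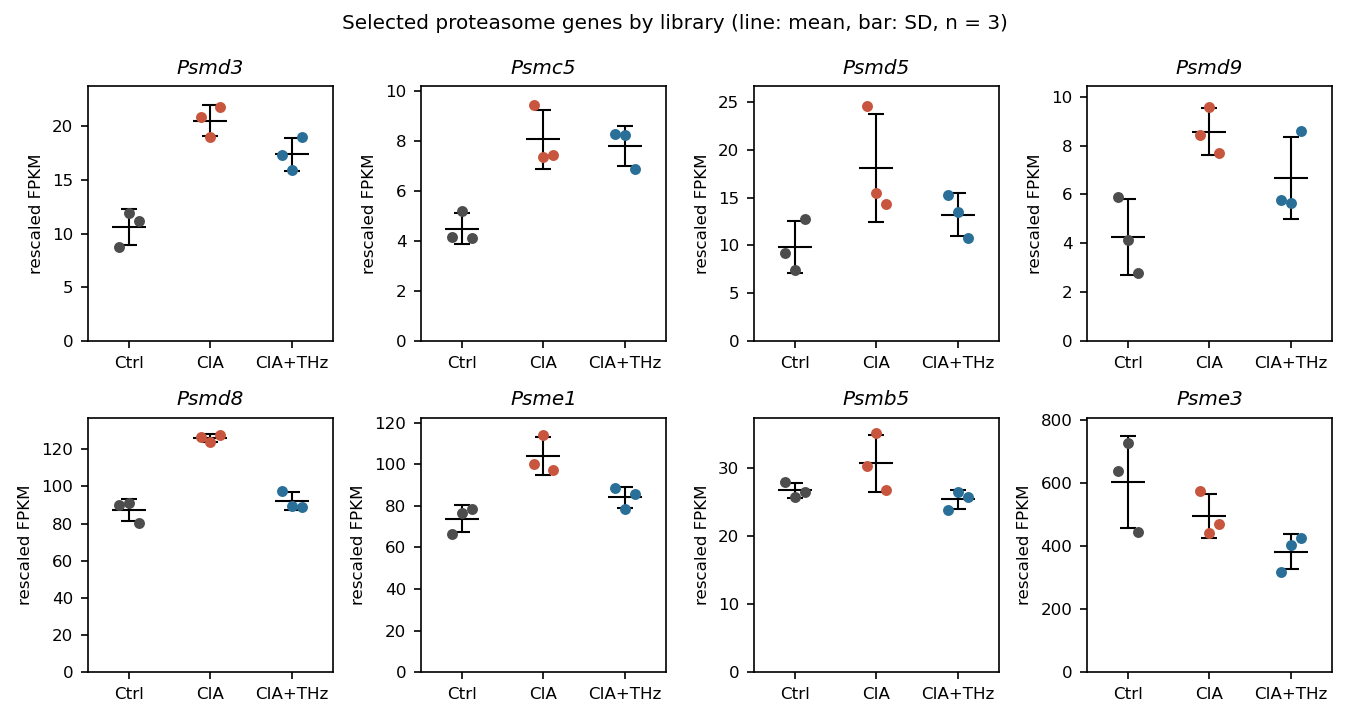
Rescaled FPKM of 8 genes by group, with 1 point per library, a line for the mean and bars for the SD (n = 3); each axis starts at 0 and has its own scale. Psmd3 and Psmc5 lie low in Ctrl alone, Psmd8 and Psme1 lie high in CIA alone, and Psme3 lies lowest in CIA+THz.

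In the 20S core the changes were smaller. All 7 beta genes had more RNA in CIA than Ctrl, with a median log2 fold change of 0.19, and 6 of 7 tested alpha genes were higher, with a median of 0.21. None passed the criterion, beside 9.04% of all genes. With the p alone, 4 did, beside 17.3% of all genes: Psma7 and the structural beta subunits Psmb2, Psmb3 and Psmb4. Psmb4, the last beta subunit to join the ring, was at 38.1, 52.9 and 41.3 in Ctrl, at 75.3, 66.96 and 63.3 in CIA, and at 73.3, 60.7 and 61.5 in CIA+THz. Both arthritic groups lay above Ctrl without overlap. The log2 fold change was 0.65 (SE 0.15, adjusted p = 0.112 by limma), just under the limit. Psmb3 also had 0.65 (SE 0.16). Its levels were 50.2, 39.6 and 48.0 in Ctrl, 79.8, 78.7 and 58.3 in CIA, and 54.6, 57.2 and 66.9 in CIA+THz. Psma7 was at 39.5, 37.2 and 46.1 in Ctrl, at 64.8, 51.1 and 61.5 in CIA and at 49.8, 48.9 and 58.9 in CIA+THz. Its log2 fold change was 0.53 (SE 0.14) from Ctrl to CIA. Psmb2 and Psmb3 passed the criterion without Ctrl replicate 1, Ctrl replicate 3 or CIA replicate 3, where Psmb3 reached up to 0.79. Psmb4 passed without Ctrl replicate 2 (0.78) or CIA replicate 3 (0.70).

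The catalytic subunits did not pass in any pair of groups. Psmb5 (chr14:54614119-54618022), the chymotrypsin-like site, was at 28.0, 25.7 and 26.6 in Ctrl, at 30.4, 35.1 and 26.8 in CIA, and at 23.9, 26.5 and 25.8 in CIA+THz. Its values in CIA lay just above those in CIA+THz, a log2 difference of -0.27 (SE 0.12) after irradiation, and the test was not passed. Psmb6 (chr11:70525367-70527858), the caspase-like site, averaged 17.8 ± 3.35 for Ctrl, 18.1 ± 1.89 for CIA and 16.5 ± 2.24 for CIA+THz (SD, n = 3). Psmb7 (chr2:38588036-38644087), the trypsin-like site, had means of 35.1 ± 4.36, 40.2 ± 7.13 and 39.6 ± 6.75. Exons of Psmb7 share 405 bases with Nek6 on the opposite strand.

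Their inducible partners had higher values in arthritis. Psmb9 was at 23.8, 23.7 and 23.5 in Ctrl, at 43.6, 36.3 and 33.0 in CIA, and at 32.6, 31.8 and 41.1 in CIA+THz. Psmb10 was at 35.9, 41.9 and 41.6, then 73.9, 57.6 and 48.7, then 72.0, 63.7 and 71.4. Psmb8 was at 60.8, 68.9 and 67.7, then 105, 92.3 and 77.6, then 82.0, 81.4 and 92.2. Exons of Psmb9 share 212 bases with Tap1 on the opposite strand, and those of Psmb8 share 498 with the antisense gene Gm20496. All 3 inducible subunits had an unadjusted p under 0.05 in CIA against Ctrl, with log2 fold changes of 0.66 (Psmb9), 0.57 (Psmb10) and 0.47 (Psmb8). Psmb10 alone passed the criterion in CIA+THz against Ctrl, at 0.79 (SE 0.11, adjusted p = 0.0576 by limma), beside 7.88% of all genes.

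The ratio of a constitutive subunit to its partner needs no scaling between libraries. Psmb6 to Psmb9 was 0.622, 0.902 and 0.726 in Ctrl, 0.421, 0.548 and 0.489 in CIA, and 0.557, 0.545 and 0.339 in CIA+THz. All arthritic libraries were below all Ctrl libraries. The geometric mean of the ratio went from 0.742 in Ctrl to 0.483 in CIA and 0.469 in CIA+THz. Psmb7 to Psmb10 went from 0.880 to 0.673 and 0.569, and Psmb5 to Psmb8 from 0.407 to 0.336 and 0.299. In an exact two-sided permutation test of 3 against 3 libraries the smallest possible p is 0.1. That value was reached for Psmb6 to Psmb9 in CIA against Ctrl and for all 3 ratios in CIA+THz against Ctrl, with an adjusted p of 0.225 over 9 tests. In CIA+THz against CIA the exact permutation p was 0.3 for Psmb5 to Psmb8, 0.9 for Psmb6 to Psmb9 and 0.2 for Psmb7 to Psmb10. There the log2 difference of Psmb6 to Psmb9, -0.04, became 0.19 without CIA+THz replicate 3 and 0.05 without CIA replicate 2.

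**Figure D4:**
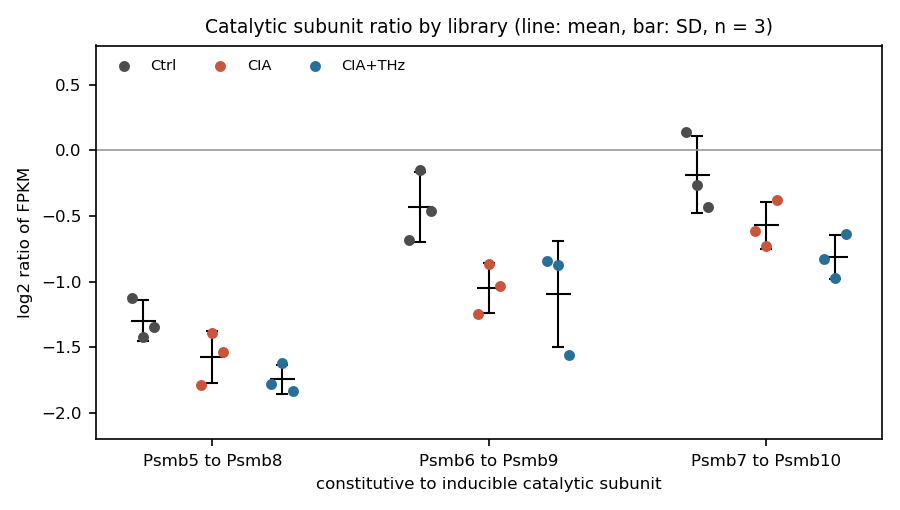
Log2 ratio of each constitutive catalytic subunit to its inducible partner, with 1 point per library, a line for the mean and bars for the SD (n = 3). Values under 0 mean more RNA of the inducible subunit. By group mean each ratio lies nearest to 0 in Ctrl, while libraries of Ctrl and CIA overlap for Psmb5 to Psmb8 and for Psmb7 to Psmb10.

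Among the activators, Psme1 and Psme3 differed between groups in different ways. Psme1 (PA28 alpha, chr14:55578123-55581529) was at 66.6, 76.5 and 78.6 in Ctrl, at 100, 114 and 97.2 in CIA, and at 88.3, 78.6 and 85.6 in CIA+THz. CIA was the highest group without overlap. By limma, Psme1 differed by 0.49 on the log2 scale (SE 0.12, adjusted p = 0.121) between CIA and Ctrl. The difference of irradiated from untreated arthritis was -0.30 (SE 0.098, adjusted p = 0.293). Psme2, the other PA28 subunit, did not pass on the p alone. Its log2 fold change was 0.14 (SE 0.17) in CIA against Ctrl and 0.07 (SE 0.20) in CIA+THz against CIA. Psme3 (PA28 gamma, chr11:101316213-101323537) was at 641, 727 and 444 in Ctrl, at 576, 444 and 472 in CIA, and at 319, 406 and 425 in CIA+THz. The irradiated libraries were the lowest, with CIA+THz replicate 3 close to the lowest library of the other groups. Its log2 fold change was -0.26 (SE 0.21) for CIA against Ctrl. The CIA+THz group differed by -0.38 (SE 0.15, adjusted p = 0.365 by limma) from CIA and by -0.64 (SE 0.21, adjusted p = 0.183) from Ctrl. The last value ran from -0.49 to -0.84 when single libraries were left out, passing the criterion without Ctrl replicate 3 (-0.84), CIA+THz replicate 2 (-0.68) or CIA+THz replicate 3 (-0.72), and it was -0.33 with FPKM as deposited. The call of Psme3 across groups was lost with FPKM as deposited, without a trend in limma, with analysis of variance on linear values, and without Ctrl replicate 1, Ctrl replicate 2 or CIA+THz replicate 1. The summed erythroid markers, mostly Alas2, were also lowest in CIA+THz, and their part in the Psme3 values was not tested. Without Psme3, the summed level of the other 40 genes was 973 to 1107 in Ctrl, 1194 to 1337 in CIA and 1091 to 1145 in CIA+THz.

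CIA+THz against CIA sets irradiated beside untreated arthritis. By the study's criterion 0 of 40 genes passed, where 4.54% of all genes did, 2.94% higher and 1.6% lower. With the p alone, 4 were lower and 0 higher: Psmd4, Psmd8, Psme1 and Psme3, named here after their values were seen. Of all genes 13.2% passed on the p alone, 5.89% higher and 7.33% lower. By limma's adjusted p 0 genes passed in the whole table (0%), and 1634 had an unadjusted p under 0.05. Psmd4 (Rpn10, chr3:95032694-95042614), a ubiquitin receptor of the 19S base, was at 90.5, 132 and 71.4 in Ctrl, at 95.7, 106 and 84.7 in CIA, and at 60.9, 73.9 and 71.2 in CIA+THz. Its log2 fold change was -0.47 (SE 0.12, adjusted p = 0.236 by limma).

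The median log2 fold change of the 40 genes was -0.08, with 14 higher and 26 lower, beside 0.03 over all genes. The sign of this small median turned with the scaling, while it stayed below the median over all genes. With FPKM as deposited the median over all genes moved to 0.29, a shift that all values of the irradiated group share, and that of the proteasome genes to 0.20, with 32 higher and 9 lower of 41, since Psma8 then passed the filter. A change of factors moves both medians alike. Without CIA replicate 1 it was -0.0033. Psmd4, Psmd8, Psme1 and Psme3 kept negative values as deposited, at -0.20, -0.18, -0.02 and -0.10. Values of Psmd3, Psmc5 and Psmb5 were -0.24, -0.05 and -0.27 after rescaling, and 0.04, 0.23 and 0.01 as deposited. All 3 chaperones of the base had lower values in CIA+THz than in CIA, at -0.42 for Psmd5, -0.39 for Psmd10 and -0.38 for Psmd9, but none passed. As deposited the values were -0.15, -0.12 and -0.11.

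CIA+THz against Ctrl sets irradiated arthritis beside health. Of 40 genes 31 were higher and 9 lower, with a median log2 fold change of 0.13 beside 0.04 over all genes; it was 0.20 without Ctrl replicate 2. Psmc5 and Psmd3 passed the criterion, both higher, where 7.88% of all genes passed, 4.64% higher and 3.24% lower. Psmd3 had a log2 fold change of 0.71 (SE 0.16, adjusted p = 0.115 by limma) and no longer passed without Ctrl replicate 1 (0.58) or CIA+THz replicate 3 (0.65). With the p alone, 8 were higher (Psma4, Psma7, Psmb2, Psmb3, Psmb4, Psmc5, Psmd1 and Psmd3) and 1 lower (Psme3), where 18.1% of all genes passed, 8.39% higher and 9.69% lower. By adjusted p 0 of the 40 passed, beside 0.105% of all genes. With FPKM as deposited, where the median of all genes stood at 0.33, 8 passed the criterion. The share of all genes passing at that setting is not given. Both this comparison and CIA against Ctrl use the same Ctrl libraries, so their like values are not independent.

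Psmc3ip was near the detection limit, at 0.575, 0 and 0 in Ctrl, 0.942, 0.712 and 1.10 in CIA and 0, 0.439 and 0.467 in CIA+THz. Its call in CIA against Ctrl was lost without Ctrl replicate 2 or 3 or without CIA replicate 1 or 3. Its exons share 385 bases with Mlx on the opposite strand. Without it, 4 of 39 genes passed in CIA against Ctrl.

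Other genes of the pathway were read from fixed lists. The 5 chaperones that build the 20S barrel (Psmg1, Psmg2, Psmg3, Psmg4 and Pomp) all had higher values in CIA than Ctrl, with a median log2 fold change of 0.98. Of these, 2 passed the criterion, beside 9.04% of all genes. Psmg3 was at 3.47, 2.95 and 3.66 in Ctrl, at 8.02, 8.06 and 4.61 in CIA and at 9.08, 6.64 and 5.73 in CIA+THz. Both arthritic groups lay above Ctrl, with log2 fold changes of 0.98 (SE 0.28) and, in CIA+THz against Ctrl, 1.05 (SE 0.22), both past the criterion. Psmg1 was at 2.25, 6.30 and 2.84 in Ctrl, at 11.3, 6.81 and 5.12 in CIA and at 4.21, 3.78 and 4.998 in CIA+THz. It passed as higher in CIA than in Ctrl (1.07, SE 0.45), where the groups overlapped, and as lower in CIA+THz than in CIA (-0.76, SE 0.30). With FPKM as deposited the latter value was -0.49, and with the 20 highest genes left out of the factor -0.56, both inside the fold limit. Of 18 associated and shuttle proteins, such as the segregase Vcp, 0 passed the criterion in CIA against Ctrl. Their median was -0.12, with 4 higher and 14 lower. The ubiquitin receptor Adrm1 was the highest of the 18, at 0.61 (SE 0.20, adjusted p = 0.197 by limma). It was the only 1 of them to pass on the p alone, where 17.3% of all genes did.

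Of 7 regulators of proteasome genes, 2 were higher and 5 lower in CIA than Ctrl, with a median log2 fold change of -0.04. On the p alone, which 17.3% of all genes passed, Nfya (-0.42, SE 0.14) and Nfyb (-0.53, SE 0.17) were lower and Nfyc (0.33, SE 0.11) was higher. These are the subunits of NF-Y, which binds CCAAT. By the criterion 1 of the 7 passed, beside 9.04% of all genes. It was Ddi2, the protease that activates NRF1, at 2.13, 1.16 and 1.89 in Ctrl, at 6.79, 2.33 and 3.02 in CIA and at 3.398, 4.69 and 1.06 in CIA+THz. CIA replicate 1 stood far above the others, and the log2 fold change was 1.08 (SE 0.45). Nfe2l1 itself had a log2 fold change of -0.01 (SE 0.13) and its relative Nfe2l2 (NRF2) of -0.04 (SE 0.17).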

How the data were processed

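The authors deposited 1 table of FPKM values per gene for 9 blood libraries (3 per group). The paper gives a TruSeq V2 kit and paired-end sequencing on an Illumina HiSeq. The submitters' processing notes name bcl2fastq 2.0, HISAT2, StringTie, DESeq2 and build mm10; roles, annotation and strand setting are not given in the sources used here. No column of the table was left unused. Counts were not used here, so depth was read only as relative steps of low genes (FPKM under 0.3).

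Columns were rescaled by median-of-ratios factors (0.847 to 1.24), taken over 10312 genes above 0 in all libraries. Genes whose rescaled FPKM averaged 0.1 or more (12366) entered the tests on log2(rescaled FPKM + 0.1) with limma 3.58.1 (trend; R 4.3.3), each pair on its 6 libraries. Fold changes are on this scale and understate low genes. The criteria were an unadjusted p under 0.05 across groups, and in pairs also a log2 fold change beyond 0.67 either way, following the study. Adjustment was by Benjamini-Hochberg over all genes tested. Ratios were tested with exact permutation tests (scipy 1.17.1). The fit was tested on simulated data. Coordinates are GENCODE's on GRCm38, matched by symbol.

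Genes named were the catalytic subunits and their partners, members past the criterion, the 5 with the smallest p across groups, the highest and lowest of each family, members not tested or not subunits, and listed pathway genes past the criterion; other names were added after their values were seen. A gene that the rule takes is not reported here. The members and lists were chosen with earlier results of these data known. The alternatives were other scalings, pseudocounts, filters, fits and thresholds, and leaving out each library. Libraries are taken as separate mice.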

Additional observations from a re-analysis of the deposited data

How the results depend on the processing

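The number of proteasome genes past the criterion was 12 across groups and 5, 0 and 2 in the pairs CIA to Ctrl, CIA+THz to CIA and CIA+THz to Ctrl. With FPKM as deposited it became 20 across groups (Psme3 lost, 9 others gained) and 7 in CIA to Ctrl (Psmb3 and Psmb4 gained). In the pairs with CIA+THz it became 1 (Psmd6) and 8, and with summed FPKM without the 20 highest genes as the factor the last became 4 (Psmb4 and Psmd9 gained). The share of all genes called under these scalings is not given, so these counts are not read as particular to proteasome genes. A pseudocount of 1 gave 1 in CIA+THz against Ctrl (Psmd3 lost). By limma's Benjamini-Hochberg adjusted p the counts were 2, 0, 0 and 0, and with an unadjusted p and no fold limit they were 13, 4 and 9 in the 3 pairs. Leaving out single libraries gave 10 to 13, 3 to 7, 0 to 1 and 2 to 4 genes. The gain of 1 in CIA+THz against CIA was Psmc3ip, without CIA+THz replicate 2 or 3, and the 4 in CIA+THz against Ctrl came without Ctrl replicate 3 (Psmd4 and Psme3 gained). The median log2 fold change in CIA+THz against CIA turned to 0.20 as deposited and 0.13 with the 20 highest genes left out of the factor. The medians over all genes were then 0.29 and 0.22. In CIA+THz against Ctrl the median of proteasome genes rose to 0.44 and 0.31, beside 0.33 and 0.21 over all genes. Leaving out libraries moved the medians over 0.11 to 0.29, -0.13 to -0.0033 and 0.10 to 0.20. The log2 difference of Psmb6 to Psmb9 in CIA+THz against CIA ranged from -0.17 to 0.19, and was 0.05 without CIA replicate 2. The causes were not tested. Replicate numbers did not pair the libraries: deviations of same-numbered libraries correlated at -0.05 to 0.03, and not every library correlated best with its own number. With the replicate number as a block 13 genes passed across groups, and the counts in pairs were 5, 0 and 2. For the named genes, 764 values under an alternative kept direction or stayed uncalled, 21 newly passed and 10 no longer passed. Total fragments are unknown, so no detection limit is given for Psma8 and Psmc3ip, both at 0 in the deepest library.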
